A study of Mus musculus with 48 samples.

Results

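The genes described here are 9 markers of striatal projection neurons: Drd1, Drd2, Adora2a, Ppp1r1b, Rgs9, Penk, Gpr6, Lrrc10b and Nexn. They were found by symbol in the deposited gene table, 9 of the 56748 genes it lists, and all 9 had enough counts to be tested in each of 4 brain regions. Polyadenylated RNA was sequenced from the medial prefrontal cortex, dorsal hippocampus, ventral hippocampus and cerebellum of female and male mice at 16 weeks of age, kept in shared cages on a normal diet. Mice labelled KO are 129/Sv-Cyp2e1tm1Gonz/J, which carry a targeted allele of Cyp2e1 (an enzyme of ethanol and drug metabolism), and mice labelled WT are the inbred strain 129S1/SvImJ. Sex, genotype label and region give 16 groups of 3 libraries each, called by these labels below (female KO 1, for example). The series text calls the 3 libraries of a group biological replicates. The labels do not state whether different regions came from the same mouse, nor whether the lines were littermates.

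Striatal projection neurons are the GABA-releasing output cells of the striatum, which lies beneath the prefrontal cortex. Those of the direct pathway carry Drd1, a dopamine receptor that raises cAMP, and those of the indirect pathway carry Drd2, a dopamine receptor that lowers cAMP, together with the adenosine receptor Adora2a and the enkephalin precursor Penk. Ppp1r1b, a regulator of protein phosphatase 1 that responds to cAMP, is abundant in both kinds of cell. Several of these genes are also used outside the striatum, Drd1 and Ppp1r1b by some cortical neurons and Penk by interneurons of many regions. In a piece of tissue, fewer cells of a type and less RNA per cell cannot be told apart.

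In the table of the deposited counts the 9 genes lie on 7 chromosomes of mm39. Drd1 (ENSMUSG00000021478) spans 54205202 to 54209724 on chromosome 13, Drd2 (ENSMUSG00000032259) 49251927 to 49319477 on chromosome 9, and Adora2a (ENSMUSG00000020178) 75152711 to 75170618 on chromosome 10. Gpr6 (ENSMUSG00000046922) is on chromosome 10 as well, at 40945973 to 40948281, and Penk (ENSMUSG00000045573) is on chromosome 4 at 4133531 to 4138819. Ppp1r1b (ENSMUSG00000061718, 98239230 to 98248622) and Rgs9 (ENSMUSG00000020599, 109116181 to 109188955) share chromosome 11. Lrrc10b (ENSMUSG00000090291) spans 10432735 to 10434837 on chromosome 19 and Nexn (ENSMUSG00000039103) 151942619 to 151971987 on chromosome 3. Ppp1r1b overlaps the long noncoding RNA 1700003D09Rik on the opposite strand (0 to 25 counts in a library) and Penk overlaps A830012C17Rik (0 to 5 counts). Nexn overlaps Gm43185 on its own strand (0 to 8 counts). Whether counting used strand is not given in the sources used here, so reads of such partners cannot be told apart.

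The promoters of 4 of the genes, Drd1, Drd2, Rgs9 and Gpr6, are shown as examples. They are RefSeq windows on GRCm38.p6, a build older than that of the counts, from 250 bases before to 50 bases after the annotated start, read 5′ to 3′ on the strand of the gene. Of the 9 genes, 5 had a window in the table used (Drd1 had a pair of them, of which 1 is shown). The window of Lrrc10b is not printed. Capitals mark the motifs searched on both strands: the GC box (GGGCGG), the full cAMP response element (TGACGTCA), the CCAAT box (CCAAT), the TATA box (TATAAA) and an E box (CAGCTG). A motif on the opposite strand appears as its reverse complement.
Drd1, chr13:54055609-54055908, minus strand: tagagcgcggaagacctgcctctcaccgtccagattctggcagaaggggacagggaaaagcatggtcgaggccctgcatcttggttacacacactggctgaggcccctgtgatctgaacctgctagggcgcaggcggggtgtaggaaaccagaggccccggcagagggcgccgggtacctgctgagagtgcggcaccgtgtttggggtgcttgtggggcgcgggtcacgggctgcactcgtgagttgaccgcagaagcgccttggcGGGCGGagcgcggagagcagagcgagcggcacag
Drd2, chr9:49340153-49340452, plus strand: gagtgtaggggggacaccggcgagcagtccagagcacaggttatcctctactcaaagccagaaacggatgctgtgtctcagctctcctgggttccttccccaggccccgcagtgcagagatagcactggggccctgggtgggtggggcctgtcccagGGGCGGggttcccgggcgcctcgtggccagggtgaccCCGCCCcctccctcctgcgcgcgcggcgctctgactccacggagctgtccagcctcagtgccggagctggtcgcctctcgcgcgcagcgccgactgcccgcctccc
Rgs9, chr11:109298132-109298431, minus strand: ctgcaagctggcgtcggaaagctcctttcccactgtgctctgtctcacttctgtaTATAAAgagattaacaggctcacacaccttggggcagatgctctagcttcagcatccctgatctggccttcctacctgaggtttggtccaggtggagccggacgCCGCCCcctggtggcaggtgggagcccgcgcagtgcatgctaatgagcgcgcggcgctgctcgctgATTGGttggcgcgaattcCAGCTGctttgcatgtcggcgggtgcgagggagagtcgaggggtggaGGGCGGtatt
Gpr6, chr10:41072241-41072540, minus strand: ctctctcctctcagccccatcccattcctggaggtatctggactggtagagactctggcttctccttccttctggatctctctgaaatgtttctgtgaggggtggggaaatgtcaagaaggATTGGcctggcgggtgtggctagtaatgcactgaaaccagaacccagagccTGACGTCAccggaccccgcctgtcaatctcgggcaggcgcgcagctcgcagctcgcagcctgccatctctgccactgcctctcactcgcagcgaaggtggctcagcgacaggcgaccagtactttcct

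The GC box was in 5 of the 6 windows of these genes and in 35.7% of all 32851 windows in the table. Both windows of Drd1 are among the 5, with the box at position 17 in window 1 and -133 in window 2. Whether these are the same site in overlapping windows was not checked. The CCAAT box was in 3 of the 6 and in 37.4% of all windows, the TATA box in 1 and 13.6%, and the E box in 1 and 16.3%. Gpr6 held the full cAMP response element, with its first base at position -78 from the start, a sequence found in 588 windows (1.79%). These matches describe the letters of the windows and nothing about binding. Windows for Adora2a, Ppp1r1b, Penk and Nexn were not used here.

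Libraries held 14.6 M to 25.9 M counts (M for mega), and those of the prefrontal cortex 14.6 M to 20.8 M, of which mitochondrially encoded genes took 2.97% to 3.81%. Cyp2e1 went against its label: the 24 libraries labelled KO held 34 to 111 counts of it and the 24 labelled WT held 0 to 8. Gene counts do not show which exons these reads came from, so directions below are those of the labels as deposited. The prefrontal libraries carried markers of cortical projection neurons at a summed 2711 to 3053 CPM (a gene's counts scaled to a total shared by all libraries), above the 1449 to 2622 CPM of the hippocampal ones. Among the hippocampal libraries, 4 stood apart by cerebellar granule cell markers, with a summed 1383 CPM in dorsal male KO 1 and 2413, 2673 and 1595 CPM in ventral male KO 3, male WT 1 and male WT 2. The other dorsal libraries held 55.5 to 163 CPM of these markers and the other ventral ones 102 to 313 CPM. Within the cerebellum the same sum ranged from 286 to 4795 CPM. Regional results are therefore also given without those 4 libraries.

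In the medial prefrontal cortex the genotype label went with opposite differences in the sexes. In females 8 of the 9 genes were higher under the KO label, where 0.193% of the 17067 genes tested rose. In males 8 of the 9 were lower under the KO label, where 2% of all genes fell. The test of that contrast between the sexes, the female difference minus the male one, was passed by 9 of 9, all in the same direction, against 0.797% of all genes. The 9 genes were chosen with earlier results of these data known, so the shares describe them and do not test the set. Each of the 6 libraries female KO and male WT stood above each of the 6 libraries female WT and male KO for all 9 genes. The share of all genes tested that separate in this way was not counted. Calls are at an adjusted p under 0.05 in edgeR's quasi-likelihood test, with Benjamini-Hochberg adjustment over all genes tested, and the 3 comparisons share libraries. Across the 9 genes the log2 change had a median of 1.80 in females and -1.44 in males, where the medians of all genes were -0.00055 and 0.0034.

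**Figure D1:**
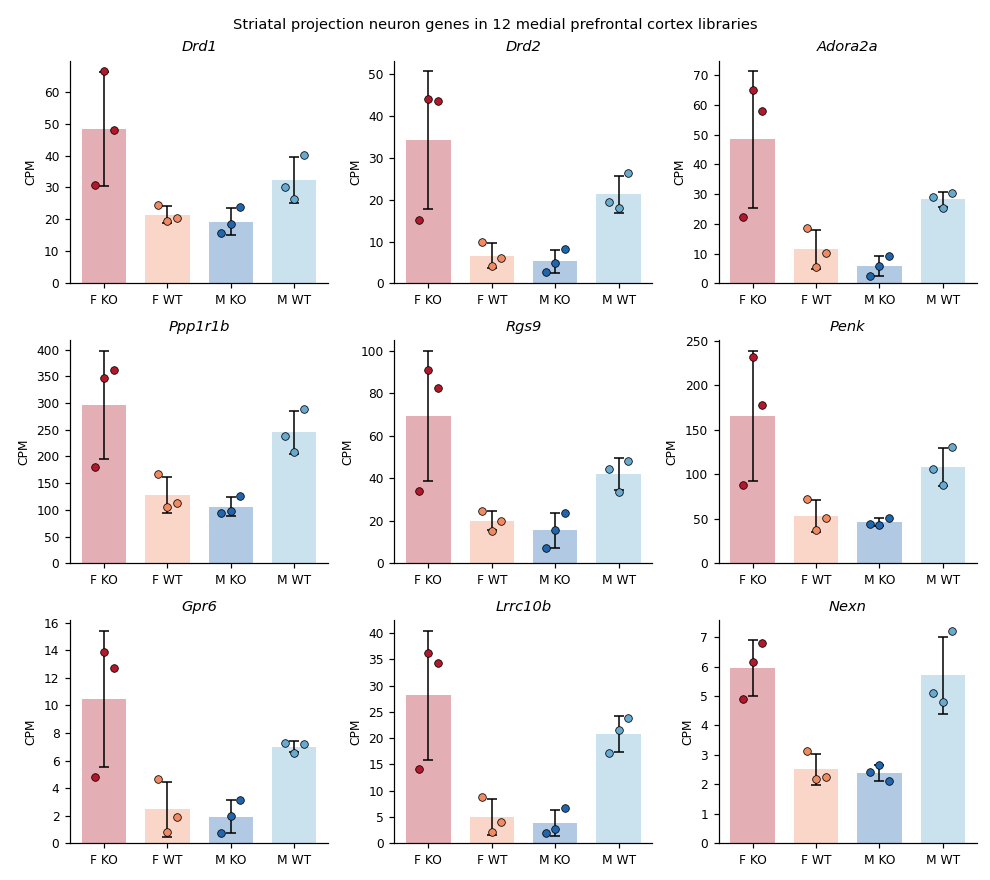
CPM of the 9 genes in the 12 medial prefrontal cortex libraries (vertical axes, starting at 0), by sex and genotype label (F female, M male). Points are libraries, bars are means and error bars are SD (n = 3). The F KO and M WT libraries lie above the F WT and M KO libraries in all 9 panels, and in 8 panels F KO 2 and F KO 3 are the 2 highest libraries.

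Among the receptors, the level of Drd2 in females was 15.2, 44.0 and 43.5 CPM under the KO label (replicates 1, 2 and 3) and 9.78, 4.08 and 6.09 CPM under the WT label. In males it was 2.66, 4.88 and 8.19 CPM under the KO label and 19.4, 18.0 and 26.3 CPM under the WT label. Female KO 1 lay closer to the female WT libraries than to female KO 2 and 3, but the labels did not overlap in either sex. Drd2 rose in females by 2.37 on the log2 scale (SE 0.39, edgeR adjusted p = 0.0216) and changed in males by -2.03 (SE 0.40, adjusted p = 0.0113). The difference between these changes was 4.39 (SE 0.56, edgeR adjusted p = 0.00324).

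Adora2a, the adenosine receptor that raises cAMP in the same neurons, followed Drd2. Females labelled KO held 22.2, 65.1 and 57.8 CPM and females labelled WT 18.6, 5.65 and 10.2 CPM. Males labelled KO held 2.46, 5.71 and 9.07 CPM and males labelled WT 29.1, 25.3 and 30.2 CPM. The male WT libraries were tightly grouped, whereas female KO 1 was only slightly above female WT 1. The log2 change was 2.08 in females (SE 0.40, edgeR adjusted p = 0.0409) and -2.31 in males (SE 0.44, adjusted p = 0.00999), and the difference was 4.39 (SE 0.60, adjusted p = 0.00324).

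Gpr6, a receptor that signals without a known ligand and is enriched in indirect pathway neurons, was the gene with the fewest counts among the receptors. It stood at 4.78, 13.9 and 12.7 CPM in female KO and at 4.69, 0.816 and 1.87 CPM in female WT. Levels were 0.702, 1.95 and 3.11 CPM in male KO and 7.28, 6.55 and 7.21 CPM in male WT. Female KO 1 and female WT 1 were almost level. The female change of 2.10 (log2, SE 0.48) did not pass (edgeR adjusted p = 0.106), the male change of -1.89 (SE 0.51) did (adjusted p = 0.0381), and the difference of 3.99 (SE 0.70) did too (adjusted p = 0.0121).

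Drd1, the receptor of the direct pathway, moved less. Female KO libraries held 30.6, 66.4 and 47.9 CPM and female WT libraries 24.4, 19.5 and 20.3 CPM. Male KO libraries held 15.6, 18.6 and 23.8 CPM and male WT libraries 30.2, 26.4 and 40.3 CPM. Here too the labels did not overlap within a sex, although male KO 3 and male WT 2 were close. The female change was 1.18 (log2, SE 0.22, edgeR adjusted p = 0.0391), while the male change of -0.72 (SE 0.22) did not pass (adjusted p = 0.0671). The difference between the sexes was 1.90 (SE 0.32, edgeR adjusted p = 0.00911).

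Penk, the precursor of the enkephalins, was the neuropeptide gene of the set. Female KO libraries held 87.7, 232 and 178 CPM against 71.8, 37.1 and 50.4 CPM in female WT. Male KO libraries held 44.2, 42.7 and 51.4 CPM against 106, 87.8 and 131 CPM in male WT. The lowest libraries labelled KO in females and WT in males were nearly equal, both above the rest. Its log2 change was 1.65 in females (SE 0.27, edgeR adjusted p = 0.0216) and -1.20 in males (SE 0.27, adjusted p = 0.0187), with a difference of 2.84 (SE 0.38, adjusted p = 0.00324).

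The signalling regulators followed the same order. Ppp1r1b, the most abundant of the 9 in this region, stood at 180, 347 and 363 CPM in female KO, 166, 105 and 113 CPM in female WT, 93.4, 97.4 and 127 CPM in male KO and 238, 208 and 289 CPM in male WT. Female KO 1 was again near female WT 1. It rose by 1.21 in females (log2, SE 0.22, edgeR adjusted p = 0.0309) and changed by -1.18 in males (SE 0.22, adjusted p = 0.00875), with a difference of 2.39 (SE 0.31, adjusted p = 0.00324). Rgs9, which speeds the shutdown of G protein signals behind the dopamine and opioid receptors, stood at 34.1, 91.0 and 82.4 CPM in female KO and 24.4, 15.4 and 20.0 CPM in female WT. Males labelled KO held 7.22, 15.7 and 23.6 CPM of Rgs9 and males labelled WT 44.5, 33.4 and 48.2 CPM. Male KO 1 was the lowest library and male KO 3 reached the level of female WT 1. The log2 change of Rgs9 was 1.80 in females (SE 0.34, edgeR adjusted p = 0.0396) and -1.44 in males (SE 0.35, adjusted p = 0.0265), with a difference of 3.24 (SE 0.49, adjusted p = 0.00612).

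Lrrc10b and Nexn complete the set. Lrrc10b, a leucine-rich repeat gene, stood at 14.1, 36.2 and 34.2 CPM in female KO, 8.83, 2.18 and 4.10 CPM in female WT, 2.00, 2.72 and 6.70 CPM in male KO and 17.1, 21.6 and 23.9 CPM in male WT. It had the largest difference between the sexes among the 9, 4.95 on the log2 scale (SE 0.61, edgeR adjusted p = 0.00324), with 2.49 in females (SE 0.42, adjusted p = 0.0274) and -2.46 in males (SE 0.44, adjusted p = 0.00802). Nexn, an actin-binding protein gene, had a narrow range: 4.91, 6.16 and 6.78 CPM in female KO and 3.12, 2.18 and 2.24 CPM in female WT. Male KO libraries held 2.41, 2.65 and 2.10 CPM of Nexn and male WT libraries 5.11, 4.78 and 7.21 CPM. Female KO 1 was less far from its group here than for the other genes. Nexn changed by 1.25 in females (log2, SE 0.22, edgeR adjusted p = 0.0309) and -1.22 in males (SE 0.22, adjusted p = 0.00769), with a difference of 2.47 (SE 0.31, adjusted p = 0.00324).

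**Figure D2:**
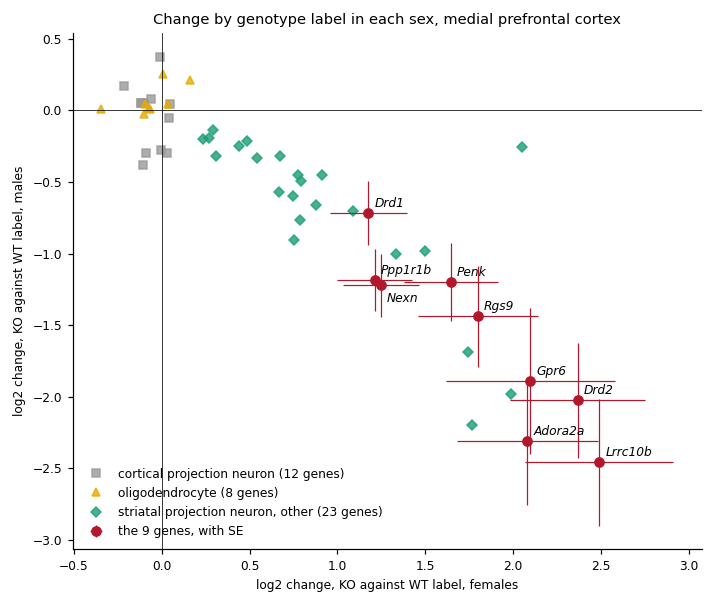
Log2 change, KO against WT label, in the medial prefrontal cortex of females (horizontal axis) and males (vertical axis). Circles are the 9 genes with the SE of each change, diamonds the 23 other striatal genes, squares cortical projection neuron markers and triangles oligodendrocyte markers. The 9 genes lie at 1.18 to 2.49 in females and -2.46 to -0.72 in males.

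The count of genes called within females rested on single libraries. It was 0 of 9 when female KO 2, female KO 3, female WT 2 or female WT 3 was left out, 3 without male WT 1 and 5 without male WT 2. Within males it was 5 without male KO 2, male WT 2 or male WT 3. With all 48 libraries in one model, whose spread is shared by the 4 regions, the counts were 2 of 9 in females and 1 of 9 in males. For the difference between the sexes it was 9 of 9 in that model and whichever of the 12 libraries was left out. In the fits without 1 library, the genes called among all tested ran from 9 to 155 within females and 115 to 1540 within males. For the difference between the sexes they ran from 59 to 800, so the member counts moved within call lists of very unlike length. Without both female KO 2 and female KO 3, a pair chosen after seeing that they held the highest levels, 0 of 9 were called for that difference, although its log2 values stayed between 1.25 and 3.95 (edgeR adjusted p from 0.115 to 0.279). In that fit female KO is the single library female KO 1, which is assumed to vary as the other groups do.

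Averaged over the sexes, the genotype label gave no call among the 9 genes, with log2 changes from -0.12 to 0.23 (edgeR adjusted p from 0.554 to 0.989, 0 at an unadjusted p under 0.05, 0 by DESeq2), where 0.24% of all genes were called. At an unadjusted p under 0.05 stood 13.1% of all genes. Female against male, averaged over the labels, gave 0 calls too (0 by DESeq2), with log2 differences from 0.07 to 0.91, where 0.105% of all genes were called. At an unadjusted p under 0.05 stood 4 of the 9 genes and 9.3% of all genes. Adora2a had the largest of these sex differences, 0.91 (SE 0.30, edgeR adjusted p = 0.348).

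Within groups 8 of the 9 genes, all but Nexn, also varied together from library to library in the prefrontal cortex. After each group's mean log2 level was removed, the 36 pairs of genes had a median Pearson r of 0.875 over the 12 libraries (0.440 to 0.992) and a median Spearman rho of 0.874. Without the 2 libraries farthest from the median the median r was 0.810. In an exact permutation test within groups (1296 arrangements, smallest possible p 0.000772), 29 of the 36 pairs had an adjusted p under 0.05 for Pearson's r. The share among pairs of other genes was not computed. The 7 pairs that did not pass were all pairs of Nexn (adjusted p from 0.0519 to 0.147 in that permutation test), which passed with Ppp1r1b alone (r = 0.721, adjusted p = 0.0316). Adora2a and Gpr6 were the closest pair (r = 0.992), and the pairs of Nexn with Rgs9 (0.440) and Lrrc10b (0.493) the loosest. In the dorsal hippocampus, ventral hippocampus and cerebellum the median r of the 36 pairs was -0.022, -0.188 and -0.110, and 0 pairs passed in each. The libraries within a region share their depth range and scaling, and the pairs share genes.

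The receptors of the output pathways did not keep a fixed ratio. Per kilobase of gene length, Drd1 to Drd2 was 0.773 to 1.41 in female KO and 1.03 to 1.10 in male WT, and 1.76 to 3.35 in female WT and 2.04 to 4.13 in male KO. Drd1 thus exceeded Drd2 by more in the libraries where all 9 genes were low. The ratio of Adora2a to Drd2 spanned 0.769 to 1.58 over all 12 libraries. Penk to Drd2, also a pair of the indirect pathway, ranged from 6.37 to 25.9, and Ppp1r1b to Drd1 from 6.47 to 9.77. These ratios are descriptions without a test.

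**Figure D3:**
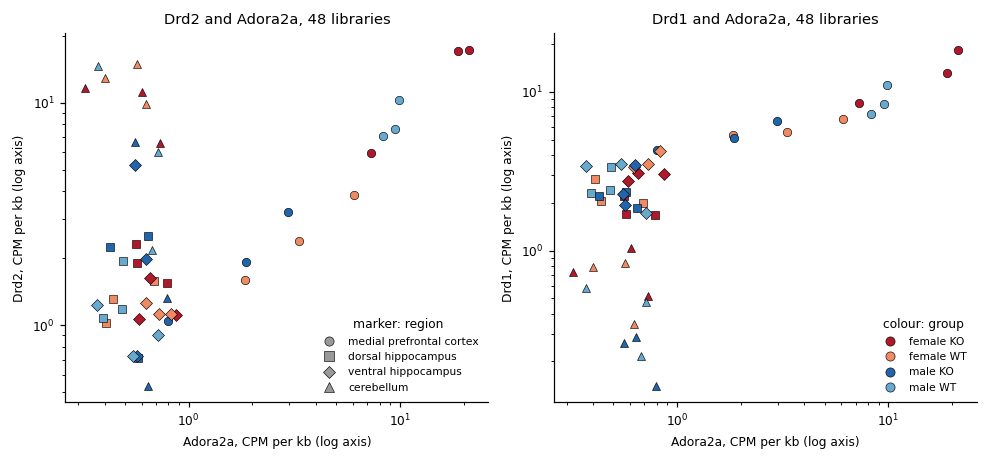
Drd2 (left) and Drd1 (right) against Adora2a in the 48 libraries, in CPM per kilobase on log axes. Marker shape gives the region and colour the sex and genotype label. The medial prefrontal libraries run along a line in both panels, while those of the other regions do not exceed 0.867 CPM per kilobase of Adora2a.

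Part of a further list of striatal projection neuron genes moved with the 9 genes. Counts from whole tissue do not show which cells this RNA came from. Of 23 further striatal projection neuron genes, 16 passed the test of the difference between the sexes, all higher in the female contrast (median log2 1.35), 5 rose in females and 9 fell in males. Syndig1l changed by 1.99 in females and -1.98 in males (log2; difference 3.97, SE 0.54, edgeR adjusted p = 0.00324), Gng7, a G protein gamma subunit, 1.09 and -0.70 (1.79, SE 0.28, adjusted p = 0.00689), and the phosphodiesterase Pde7b 0.75 and -0.60 (1.35, SE 0.20, adjusted p = 0.00514), each called in both sexes by edgeR. The summed level of the 23 genes was 2213 to 3634 CPM in female KO, 1707 to 2189 in female WT, 1626 to 1824 in male KO and 2307 to 2683 in male WT. This list was written with earlier results of the data known. With its mean log2 level as a covariate, 0 of the 9 genes were called in females, in males or for the difference, whose log2 values were then 0.07 to 1.87 (edgeR adjusted p from 0.752 to 0.973). The level of this list differs between the same groups, so that fit cannot separate it from sex and label.

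Of 7 other direct pathway genes 2 passed for the difference between the sexes, and none within a sex: Slc35d3 (difference 3.39, SE 0.61, edgeR adjusted p = 0.0136) and Tac1, the precursor of substance P (2.12, SE 0.47, adjusted p = 0.0359). Of 3 other indirect pathway genes tested (of 4), Gprin3 passed (1.08, SE 0.22, adjusted p = 0.0263) and Gpr52 did not (1.29, SE 0.32, adjusted p = 0.0539). In the list of dopamine and cAMP signalling 3 of 17 genes tested (of 19) passed for the difference (Ppp1ca, Ppp3ca and Gnb5) and 4 fell in males. Those that fell were the catalytic phosphatase subunits Ppp1ca (-0.24 in males on the log2 scale, SE 0.05, edgeR adjusted p = 0.0113), Ppp1cb (-0.18, adjusted p = 0.0443) and Ppp3ca (-0.28, adjusted p = 0.0149), and Gnb5, the G protein subunit that binds Rgs9 (-0.24, adjusted p = 0.048). Of 7 opioid peptide and receptor genes 0 passed for the difference. Pnoc, the nociceptin precursor, was called lower in males (log2 change -0.46, SE 0.13), and the other 6 were not called in either sex.

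Markers of other cell types were read in the same libraries. Of 12 cortical projection neuron markers 0 passed for the difference between the sexes and 1 fell in males (Rbp4, log2 change -0.38, SE 0.10, edgeR adjusted p = 0.0351). Of the markers of oligodendrocytes (8), astrocytes (5), microglia (5), mural cells (4 tested of 5) and hippocampal neurons (5), 0 passed in either sex or for the difference. The summed oligodendrocyte level was 7150 CPM in male KO 1, the library with the lowest mean level of the 9 genes, and 3420 to 5397 CPM in the other 11 prefrontal libraries. Cholinergic neuron markers, which label cells of the striatum and basal forebrain, moved with the 9 genes. Their sum over 4 genes was 4.03, 19.4 and 12.5 CPM in female KO, 2.04 to 3.46 in female WT, 2.05 to 3.48 in male KO and 4.51 to 7.02 in male WT. Chat, which makes acetylcholine, passed for the difference (5.18 on the log2 scale, SE 0.86, edgeR adjusted p = 0.00904) with mean levels of 3.16 CPM in female KO and 0.566 CPM in female WT. Lhx8 and Slc18a3 (the latter named after its values were seen) passed as well, so 3 of 4 did, and 1 of the 4 was at 0 in female WT 1 and in female WT 2.

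GABA interneuron markers gave 2 of 8 for the difference, Gad1 (0.42, SE 0.10, edgeR adjusted p = 0.0384) and Slc32a1, the latter chosen after its values were seen, and Gad1 and Pvalb fell in males by 0.24 and 0.37. Striatal projection neurons also use Gad1 and Slc32a1. Of the choroid plexus and ependyma list 1 of 5 genes tested (of 7) passed, Clic6 (3.38, SE 0.77, adjusted p = 0.0386). The summed level of that list was 64.5 CPM in male WT 2 and 6.52 to 15.5 CPM in the other 11 prefrontal libraries, and no gene of it was called within a sex. The septal list, with 0 of 3 called, was highest in female KO 3 at 81.7 CPM and otherwise 23.5 to 55.9 CPM. The lists of olfactory bulb (2 tested of 4), thalamus and habenula (3 of 5), cerebellar granule cells (3 of 6) and Purkinje cells (4 of 5) gave 0 calls. The part of these other cells in the result was not tested.

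**Figure D4:**
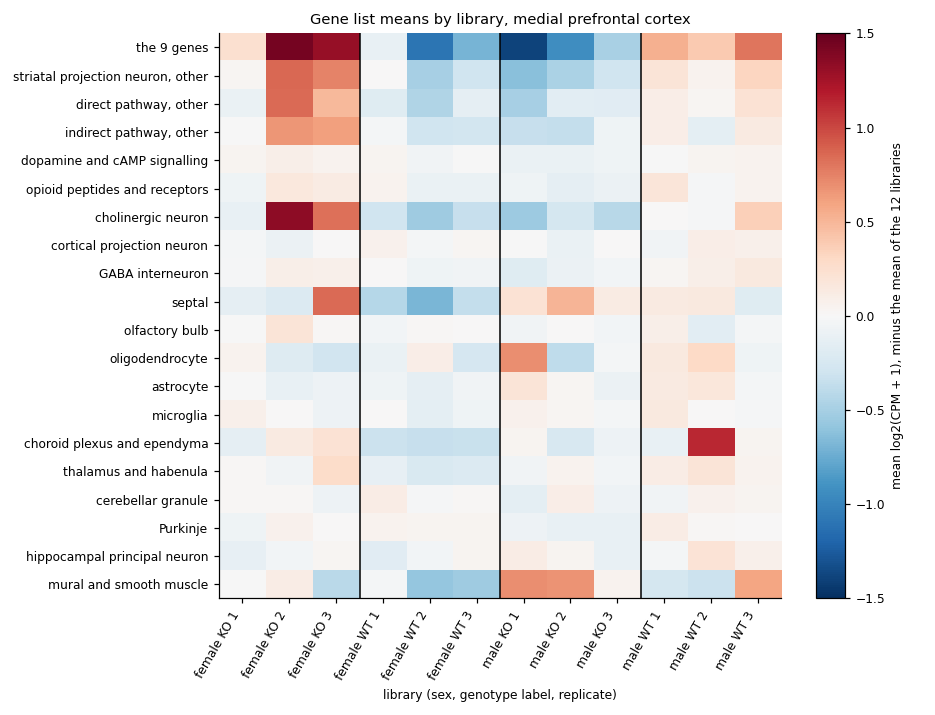
Mean log2(CPM + 1) of each gene list in the 12 medial prefrontal cortex libraries (columns), minus the list's mean over those libraries; red is higher and blue lower. The 9 genes, the other striatal lists and the cholinergic list are highest in female KO 2 and female KO 3. The choroid plexus and ependyma list is high in male WT 2 and the cortical projection neuron list varies little.

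Over the 15187 genes compared, those whose log2(CPM + 1) was most like the mean of the 9 across the 12 prefrontal libraries included Syndig1l (Pearson r = 0.994), Ido1 (0.982), Serpina9 (0.981), Pde10a (0.980), Cd4 (0.977), Gng7 (0.974) and Pde1b (0.972). Of these, 4 stand in the striatal list. Some had low levels, with means over the 12 libraries of 1.03 CPM for Ido1, 4.41 for Serpina9 and 4.46 for Cd4. Ido1 had group means of 0.423 CPM in female WT and 0.233 CPM in male KO. Most like Drd1 were Six3 (0.975), Gng7 (0.974) and Klhl13 (0.973). Genes most like Drd2 included Syndig1l (0.995) and Serpina9 (0.984), and most like Penk were Adcy5 (0.977), Pde1b (0.976) and Ido1 (0.975). Since the groups differ in level, these r values describe likeness and carry no test.

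Across regions the 9 genes did not share an order. In the medial prefrontal cortex 7 of 9 were higher than in the dorsal hippocampus, where 13.3% of the 19183 genes tested were higher, and 1 was lower (15.9% of all genes). Against the ventral hippocampus 7 were higher (15.4% of all genes) and 0 lower (17.1%). Against the cerebellum 6 were higher (30.7% of all genes) and 1 was lower (34.8%). These contrasts average both sexes and both labels over all 48 libraries. Without the 4 hippocampal libraries with cerebellar markers the counts called in either direction were 8 against the dorsal hippocampus, 8 against the ventral and 7 against the cerebellum.

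Adora2a was higher in the prefrontal cortex than in each of the other regions. It ranged from 2.46 to 65.1 CPM in the prefrontal cortex (median 20.4, n = 12), 1.20 to 2.41 in dorsal hippocampus (median 1.61), 1.13 to 2.65 in the ventral hippocampus (median 1.93) and 0.987 to 2.43 in the cerebellum (median 1.88). The last 3 did not differ from each other in the test, and the prefrontal level exceeded the dorsal hippocampal one by 3.39 on the log2 scale (SE 0.20, edgeR adjusted p = 1.51e-15). Prefrontal male KO 1 overlapped the highest libraries of the ventral hippocampus. Drd1 fell in steps, from 15.6 to 66.4 CPM (median 25.4) in the prefrontal cortex to 6.30 to 15.4 (11.7) in the ventral hippocampus, 6.03 to 12.2 (8.03) in the dorsal hippocampus and 0.511 to 3.76 (1.80) in the cerebellum. Each step passed the test, with the smallest between dorsal and ventral hippocampus (log2 -0.43, SE 0.14, edgeR adjusted p = 0.035).

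Drd2, in contrast, was highest by median in the cerebellum, at 1.36 to 38.2 CPM (median 21.1), against 2.66 to 44.0 (12.5) in the prefrontal cortex, and that pair did not differ in the test (log2 -0.54, SE 0.30, edgeR adjusted p = 0.105). Dorsal hippocampal libraries held 1.81 to 6.38 CPM (4.00) and ventral ones 1.85 to 13.4 (2.86), a pair that did not differ either. The cerebellar spread was wide within groups: male KO held 3.39, 17.0 and 1.36 CPM of Drd2, and male WT 5.57, 15.3 and 37.3 CPM. The cerebellar libraries with the highest granule cell sums, male KO 1 and male KO 3 at 4795 and 4772 CPM, were the 2 lowest for Drd2, and the part of that in the level was not tested.

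Penk had cerebellar levels of 77.6 to 126 CPM (median 92.4), which did not differ in the test from its prefrontal ones of 37.1 to 232 (79.7; log2 -0.25, SE 0.14, edgeR adjusted p = 0.113). It was lower in the dorsal (25.8 to 38.9 CPM) and ventral hippocampus (20.2 to 66.8), and its high ventral values of 66.8, 58.8 and 50.0 CPM were in male KO 3, male WT 1 and male WT 2, which carried the cerebellar markers, with a further 50.0 CPM in male KO 1. Ppp1r1b ranged from 93.4 to 363 CPM in the prefrontal cortex, 51.6 to 71.7 in dorsal and 46.6 to 100 in ventral hippocampus, and 32.0 to 147 in the cerebellum, and the last 3 did not differ in the test. Rgs9 was highest in the prefrontal cortex, with 7.22 to 91.0 CPM, then in the cerebellum with 2.30 to 18.4, and the hippocampal regions followed with 5.63 to 10.4 (dorsal) and 4.24 to 13.3 (ventral). Of these, the cerebellum exceeded the dorsal hippocampus narrowly (log2 -0.51 for dorsal against cerebellum, SE 0.22, edgeR adjusted p = 0.0427).

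Gpr6 was 0.702 to 13.9 CPM in the prefrontal cortex, 1.31 to 3.07 in dorsal and 0.382 to 4.42 in ventral hippocampus, and 0 to 1.52 in the cerebellum, where male WT 1 held no count. The hippocampal regions did not differ from each other for Gpr6. Lrrc10b was the exception in the hippocampus: its dorsal level of 2.92 to 31.6 CPM (median 19.9) exceeded the prefrontal one of 2.00 to 36.2 (11.4; log2 -0.90 for prefrontal against dorsal, SE 0.29, edgeR adjusted p = 0.0166) and the ventral one of 2.25 to 13.9 (log2 1.41, SE 0.29, adjusted p = 0.000806). Dorsal male KO 1, one of the 4 libraries with cerebellar markers, held the 2.92 CPM, and the other 11 dorsal libraries held 12.4 CPM or more. Cerebellar libraries held 0.256 to 3.90 CPM. Nexn was highest in the cerebellum, at 7.46 to 14.1 CPM with every library above all those of the other regions, and lower in the prefrontal cortex (2.10 to 7.21 CPM, log2 -1.52 against the cerebellum, SE 0.18, adjusted p = 1.81e-09).

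**Figure D5:**
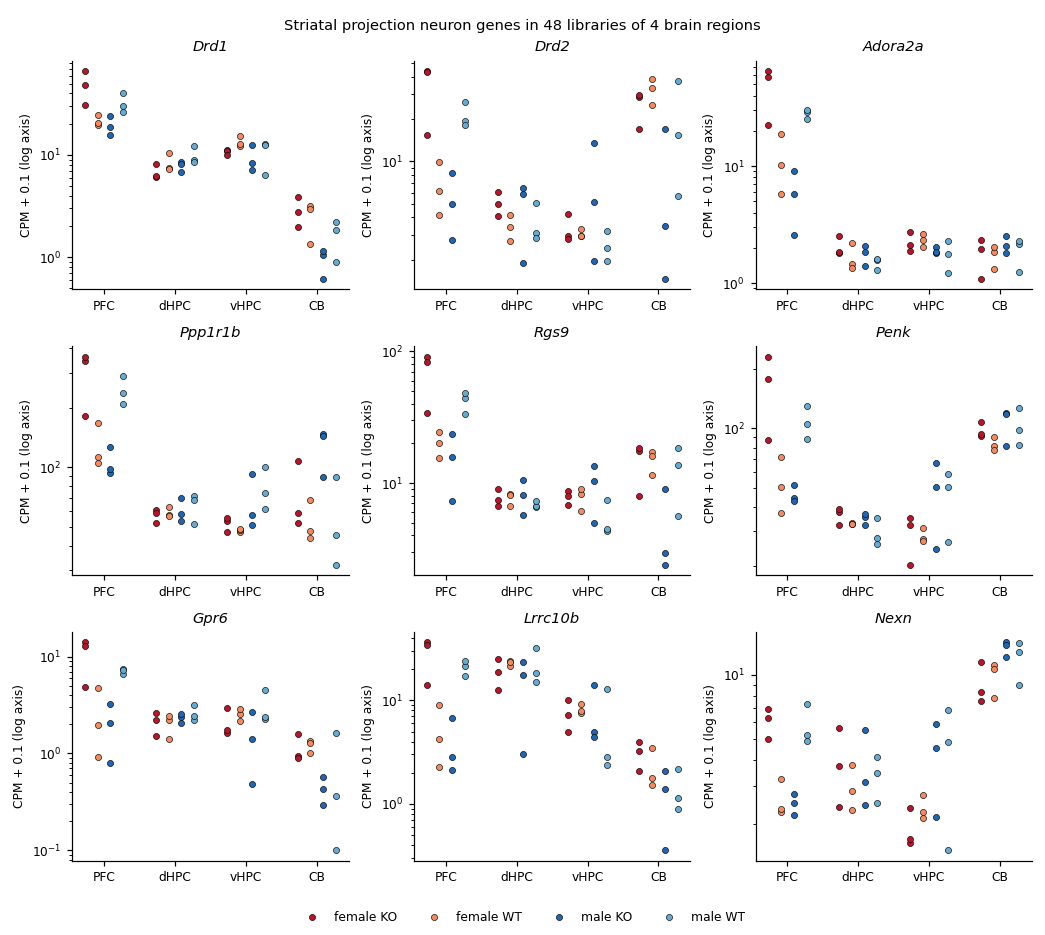
CPM + 0.1 on a log axis for each of the 9 genes in all 48 libraries, by region (PFC medial prefrontal cortex, dHPC and vHPC dorsal and ventral hippocampus, CB cerebellum); points are libraries, coloured by sex and genotype label. The prefrontal groups separate by label within each sex, and Nexn is highest in CB.

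Dorsal against ventral hippocampus gave 1 gene higher (Lrrc10b) and 1 lower (Drd1) of 9, where 9.7% and 7.15% of all genes were called. Without the 4 libraries with cerebellar markers 3 were called, and without all replicate 2 libraries 0. Dorsal hippocampus against cerebellum gave 3 higher and 4 lower, where 27.2% and 28.6% of all genes were called, and ventral against cerebellum 3 and 4, where 29.6% and 29.1% were called. Per kilobase of gene length Ppp1r1b (66.2 ± 32.9 CPM per kb, SD, n = 12) and Penk (57.1 ± 37.0) led the 9 genes in the prefrontal cortex, and Nexn was the lowest (1.08 ± 0.501). In the cerebellum Penk led at 59.5 ± 10.3 CPM per kb, and Gpr6 (0.430 ± 0.291), Drd1 (0.518 ± 0.283) and Adora2a (0.584 ± 0.149) were the lowest.

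Outside the prefrontal cortex none of the 9 genes passed for the genotype label averaged over the sexes or for its difference between the sexes, where 0% of all genes passed in each of the 3 regions. Averaged over the sexes, the log2 changes ran from -0.43 to 0.47 in the dorsal hippocampus (0.655% of all genes called, 0 of the 9 by edgeR and by DESeq2, 2 at an unadjusted p under 0.05), -0.67 to 0.80 in the ventral hippocampus (0.0748% called, 0 by either tool, 0 unadjusted) and -0.88 to 0.82 in the cerebellum (7.98% called, 0 by edgeR, 1 by DESeq2, 1 unadjusted). Of all genes, 14.2%, 4.34% and 36% had an unadjusted p under 0.05 in these regions, in that order. The gene that DESeq2 called in the cerebellum was Ppp1r1b (0.82 on the log2 scale, DESeq2 adjusted p = 0.0188; edgeR adjusted p = 0.0722). Female KO libraries of the cerebellum held 108, 58.2 and 52.3 CPM of Ppp1r1b and female WT 43.6, 67.7 and 47.5 CPM, while male KO held 147, 89.5 and 143 CPM and male WT 88.8, 32.0 and 45.0 CPM. The labels overlapped in females, and libraries high in Ppp1r1b were also high in the granule cell sum, which was 3277, 1100 and 771 CPM in female KO and 286, 1715 and 572 CPM in female WT. In males the sum was 4795, 3100 and 4772 CPM in KO and 3471, 459 and 289 CPM in WT, so that male WT 1 lay within the male KO range. Its part in the result was not tested. Leaving out male KO 2 or male WT 1 gave 1 call among the 9 in the cerebellum, not necessarily of Ppp1r1b. Across all genes tested, the number called ran from 7 to 6400 over the 12 cerebellar fits that each left out 1 library. Over the 18 alternative settings there, Ppp1r1b was called in 4 and Drd2 in 1. The change of Drd2 was negative in all 18 (log2 -1.69 to -0.44).

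The difference between the sexes was compared between regions in one fit of all 48 libraries, a test added after seeing the data. The prefrontal difference minus the mean difference of the other 3 regions passed for 5 of 9 genes, where 0.0886% of the 19183 genes tested were called. These were Adora2a (4.44, SE 0.60, edgeR adjusted p = 0.000176), Penk (2.85, SE 0.46, adjusted p = 0.00274), Ppp1r1b (2.54, SE 0.47, adjusted p = 0.0126), Lrrc10b (4.83, SE 1.01, adjusted p = 0.0463) and Rgs9 (3.14, SE 0.67, adjusted p = 0.0463). Drd2 (4.44, adjusted p = 0.0738), Nexn (2.60, 0.0738), Gpr6 (3.41, 0.196) and Drd1 (1.60, 0.273) did not pass. Without all replicate 2 or all replicate 3 libraries 0 of 9 passed, and without the 4 hippocampal libraries with cerebellar markers 7 did.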

How the data were processed

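Gene counts were deposited by the authors as one table of raw whole-number counts for 56748 genes in 48 libraries, beside which stands the length of each gene, per the file headers. The submitters' processing notes name the aligner HISAT2 (version 2.0.5), the build mm39 and the tool DESeq2. The counting tool, annotation and strand setting are not given in the sources used here. The extraction text in the labels speaks of liver although the source is brain.

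edgeR 4.0.16 (under R 4.3.3) tested the counts by its quasi-likelihood method (TMM factors, filterByExpr with a minimum count of 10 and total of 15, Benjamini-Hochberg adjustment, calls under 0.05). The 12 libraries of a region had their own fit with 4 group means, and regions were compared in one fit of 16 groups. CPM values are scaled by TMM over all 48 libraries, and levels between genes are per 1000 bases of gene length. The procedure was tested on simulated data. Correlations were computed in Python 3.11.15.

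The 9 genes and the 19 gene lists beside them were chosen with earlier results of these data known. All 9 genes are named throughout. Of each list up to 4 genes called within the prefrontal genotype comparisons were named, or up to 2 of smallest p where none was, and the genes of like pattern were the 8 of highest r at a mean of at least 1 CPM (3 each for Drd1, Drd2 and Penk). A gene that these rules name is not reported here.

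Alternatives were DESeq2 1.42.0, DESeq2-type size factors, other low-count filters (none, or 1 CPM in 6 libraries), a block for the replicate number, other sets of libraries in the fit, a covariate and leaving libraries out. Added after seeing the data were the removal of female KO 2 and 3, the removal of 4 hippocampal libraries whose summed cerebellar granule markers exceeded 5 times their region's median, and the comparison of the sex difference between regions. Libraries of one group were never duplicates: over 48 pairs, chi-square divided by its degrees of freedom was at least 3.51. The p-values measure the spread between libraries, and the number of counts limits the precision of the genes of low level.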

Additional observations from a re-analysis of the deposited data

Results flagged for a closer look

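In the medial prefrontal cortex the KO against WT change differed between females and males for all 9 genes by the test of the difference itself (edgeR, female minus male change, log2 scale), which is what singled them out. The differences were 1.90 for Drd1, 4.39 for Drd2, 4.39 for Adora2a, 2.39 for Ppp1r1b, 3.24 for Rgs9, 2.84 for Penk, 3.99 for Gpr6, 4.95 for Lrrc10b and 2.47 for Nexn, with edgeR adjusted p from 0.00324 to 0.0121. In each sex all 3 libraries of one label lay above all 3 of the other for these 9 genes. How many of all genes tested do so was not counted. The genes had been chosen with earlier results of these data known, and the 9 values rest on the same 12 libraries, so they are not 9 independent results.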

How the results depend on the processing

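Settings other than those named here kept each count of called genes within 1.5 times its main value. Leaving out one library at a time gave 0 to 9 of 9 within females (main 8), 5 to 9 within males (main 8), 9 to 9 for the difference between the sexes (main 9), and 0 to 1 for the genotype label in the cerebellum (main 0). The genes called among all tested ran from 9 to 155, 115 to 1540, 59 to 800 and 7 to 6400 in those fits, in that order. Leaving out all libraries of one replicate number gave 0 to 2 for dorsal against ventral hippocampus (main 2) and 0 to 5 for the prefrontal sex difference against the other regions (main 5). Among all genes tested, 545 to 4527 and 0 to 18 were called in these fits, in that order. With the mean of the other striatal genes as a covariate 0 genes were called within females, within males and for the difference. That covariate itself differs between the groups compared. Without female KO 2 and 3 the counts were 0 within females and 0 for the difference. With all 48 libraries in one model they were 2 within females, 1 within males and 1 for the genotype label in the cerebellum. A filter of 1 CPM in at least 6 libraries gave 5 within females, and 3 for the sex difference against the other regions, as did DESeq2-type size factors (3). DESeq2 called 1 in the cerebellum. With only the libraries labelled WT, 1 gene was called for dorsal against ventral hippocampus. Without a low-count filter 1 was called for the genotype label in each of prefrontal cortex, dorsal hippocampus and cerebellum, and 7 for female against male, in fits whose p-values became very small. The cause of these changes was not tested.

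No called value changed sign. Of 180 log2 values recomputed for the prefrontal genotype label averaged over the sexes, 43 changed sign, none of them called. The replicate block, added although same-numbered prefrontal libraries of different groups did not deviate together (median r 0.0028, 1 of 18 pairs over 0.1), gave 7 called within females, 8 within males and 9 for the difference. Between regions, same-numbered libraries of one sex and label had a median r of 0.036 (24 of 72 pairs over 0.1). Those of unlike number had -0.021 (13 of 144). The main fit of all 48 libraries treats libraries of different regions as independent, and whether they share mice was not tested. Depth limits Gpr6, Nexn and Lrrc10b in the prefrontal cortex, where their lowest libraries held 12, 31 and 32 counts.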
